A study of Mus musculus with 24 samples.

Results

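Messenger RNA of 35 genes of the hypoxia response and of glycolysis was followed in neural stem and progenitor cells (NSPCs) that carried both, one or no functional Kat6a alleles. The genes were taken by symbol from count tables that listed 26411 genes, and all 35 were found. They comprise 11 glycolytic enzymes, 3 regulators of glycolysis and pyruvate entry, 2 transporters, 2 secreted signals, 4 mitochondrial genes, 2 oxygen-dependent hydroxylase or demethylase genes, 5 genes of collagen modification and secretory folding, 4 genes of growth and transcription control, Car9 and Ankrd37. Car9, which encodes a carbonic anhydrase, was at most 0.663 CPM (counts scaled to library size) in any library and did not pass the filter on low counts, so that 34 members were tested in each comparison.

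The NSPCs came from the dorsal telencephalon of mouse embryos at E12.5 (the embryonic day), which were Kat6a+/+, Kat6a+/- or Kat6a-/-. The null allele lacks several exons and ends in a premature stop codon, and Kat6a+/- mice were kept on a C57BL/6 background. Kat6a encodes a histone acetyltransferase. The cells were expanded in neurosphere culture and frozen before use. RNA was then collected after 3 days in medium with FGF2 and EGF (proliferating) or after 3 days on poly-L-ornithine and laminin with serum in place of the growth factors (differentiating). The study describes floating spheres for proliferating Kat6a+/+ NSPCs and smaller colonies with a tendency to attach for Kat6a+/-. Its Kat6a-/- NSPCs gave few floating colonies, attached to the plastic and grew more slowly. Growth form thus went with genotype, and its part in the members' levels was not tested. Each of the 6 groups held 4 libraries, 24 in all, from 8 litters. Of these litters, 5 were used for proliferating and 7 for differentiating NSPCs, and 6 embryo labels occurred in both conditions. RNA extraction used a different kit in each condition, and the effects of kit and condition cannot be told apart.

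Total counts ranged from 7826660 to 40838203 per library. Whole-gene Kat6a counts did not check the genotype, because the null allele still gives RNA, at 334 to 389 CPM in proliferating Kat6a-/- libraries and 373 to 409 CPM in Kat6a+/+. Sox1, a neural transcription factor gene taken as a check because earlier results of these data showed it to differ, stood at 4.12 to 6.34 CPM in proliferating Kat6a-/- libraries and at 25.0 to 41.1 CPM in Kat6a+/+. Y-linked reads marked 3 Kat6a+/+, 1 Kat6a+/- and 1 Kat6a-/- library in each condition, so sex was not balanced between the genotypes. Of the 6 embryo labels that occurred in both conditions, 1 did not hold: embryo 7 of litter 4113 (Kat6a+/+ replicate 1 in each condition) had Y-linked reads in its differentiating and not in its proliferating library. Those libraries are therefore not from 1 embryo as labelled, and which of them carries the wrong label is not known. The Kat6a+/+ replicates 2, labelled embryo 7 of litter 4346 (proliferating) and embryo 7 of litter 4364 (differentiating), had the reverse pattern of Y-linked reads. Whether libraries were exchanged, and whether these numbers stand for 1 litter, is not known, and litters and embryos are counted as labelled. Their genotype could not be read from Kat6a, although Sox1 was at 41.1 CPM in the proliferating one, and results are given below with and without them where the calls rest on them. Neural stem and progenitor markers (8 genes, among them Sox2, Nes and Vim) summed to between 5368 and 12486 CPM over all libraries. Microglial and erythroid markers each summed to at most 1.14 CPM.

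When oxygen is plentiful, prolyl hydroxylases of the EGLN family mark the alpha subunits of the hypoxia-inducible factors (HIF), and the VHL ubiquitin ligase then removes them. When oxygen is scarce, HIF1A or EPAS1 pairs with ARNT and binds DNA at a short core, ACGTG or GCGTG, near genes that raise glucose uptake, glycolysis and lactate release, that limit pyruvate use by mitochondria, and that signal to vessels. Stem and progenitor cells of the developing brain rely strongly on glycolysis, and this reliance is known to fall as they differentiate.

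The promoters of 6 members whose values recur in the results are printed to show where those letters lie. RefSeq promoters (table build GRCm38.p6) were found for 30 of 35 members, as 45 start sites. No entry was matched for Bnip3l, Plod2, Loxl2, Ndrg1 and Bhlhe40. ACGTG, read on both strands, occurred within 250 bases before the start in 22 of 45 member promoters (48.9%) and in 16.6% of all 32851 promoters in the table. GCGTG, also read on both strands, occurred in 25 of 45 (55.6%) and in 28.2% of all. The palindrome CACGTG holds ACGTG on both strands and was counted as 1 place. A match is a run of letters and not a measured binding site. The members were listed as hypoxia and glycolysis genes, and some have several start sites (4 for Ak4). The other promoters were not matched for base composition, so these shares describe the list and no enrichment was tested. The 6 sequences below are the 250 bases before the first listed start, 5′ to 3′ in the direction of transcription, placed on GRCm39 by exact match. Capitals mark places where ACGTG or GCGTG is read on either strand.
Hk2, chr6:82751436-82751685, minus strand: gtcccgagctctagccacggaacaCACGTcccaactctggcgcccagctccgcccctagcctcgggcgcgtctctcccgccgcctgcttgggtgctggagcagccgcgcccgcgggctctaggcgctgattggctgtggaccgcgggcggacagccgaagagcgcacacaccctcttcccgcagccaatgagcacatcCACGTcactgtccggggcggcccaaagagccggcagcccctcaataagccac
Pfkp, chr13:6698808-6699057, minus strand: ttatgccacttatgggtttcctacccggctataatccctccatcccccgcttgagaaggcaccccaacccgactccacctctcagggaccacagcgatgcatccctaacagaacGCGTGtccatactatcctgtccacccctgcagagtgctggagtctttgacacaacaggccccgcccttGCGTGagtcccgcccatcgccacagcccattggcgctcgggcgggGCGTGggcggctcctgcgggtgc
Pgk1, chrX:105230456-105230705, plus strand: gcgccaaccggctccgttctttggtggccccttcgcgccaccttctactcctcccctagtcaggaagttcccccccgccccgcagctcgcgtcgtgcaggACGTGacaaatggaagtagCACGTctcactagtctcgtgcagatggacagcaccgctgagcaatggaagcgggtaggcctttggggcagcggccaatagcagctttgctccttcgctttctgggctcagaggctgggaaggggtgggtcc
Ldha, chr7:46494978-46495227, plus strand: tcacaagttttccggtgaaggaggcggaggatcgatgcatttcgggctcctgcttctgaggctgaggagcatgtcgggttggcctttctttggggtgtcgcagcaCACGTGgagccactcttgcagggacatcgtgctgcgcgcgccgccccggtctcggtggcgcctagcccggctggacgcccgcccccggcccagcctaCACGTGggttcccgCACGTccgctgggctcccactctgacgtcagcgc
Slc2a1, chr4:118965692-118965941, plus strand: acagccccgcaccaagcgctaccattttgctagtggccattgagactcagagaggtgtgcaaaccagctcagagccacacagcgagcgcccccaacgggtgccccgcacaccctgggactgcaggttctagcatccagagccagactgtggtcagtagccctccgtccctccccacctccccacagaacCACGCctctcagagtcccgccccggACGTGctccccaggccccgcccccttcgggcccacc
P4ha2, chr11:53991500-53991749, plus strand: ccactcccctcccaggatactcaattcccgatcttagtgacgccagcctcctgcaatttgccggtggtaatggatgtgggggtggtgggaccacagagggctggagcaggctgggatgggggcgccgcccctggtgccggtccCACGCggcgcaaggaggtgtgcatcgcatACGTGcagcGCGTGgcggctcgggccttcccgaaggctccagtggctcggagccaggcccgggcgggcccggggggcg
Hk2 and Pgk1 each held 2 such places, Ldha held 3, and Pfkp held 3 copies of GCGTG. Slc2a1 held 1 of each core, and P4ha2 held 1 ACGTG and 2 GCGTG.

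Levels per length of transcript were compared in Kat6a+/+ NSPCs as RPKM (reads scaled to transcript length and library size, mean ± SD, n = 4). In proliferating NSPCs Ldha, the lactate dehydrogenase subunit that makes lactate, was highest of the members at 558 ± 209.8. It was followed by Tpi1 (triose phosphate isomerase) at 322 ± 126, Eno1 (enolase) at 225 ± 67.4, Gpi1 (glucose-6-phosphate isomerase) at 177 ± 71.1 and Pgam1 (phosphoglycerate mutase) at 149 ± 50.2. Ldha and Tpi1, and Tpi1 and Eno1, differed by more than the SD of the lower gene, and the neighbours after them by less. P4ha2, Loxl2 and Pfkfb4 were at 5.91 ± 4.78, 5.14 ± 5.14 and 1.88 ± 0.212. In differentiating NSPCs Ldha was again first at 201 ± 25.4, ahead of Tpi1 at 157 ± 9.29 and Eno1 at 141 ± 12.47, each more than the SD of the lower gene apart. Levels of Gapdh and Eno1 are uncertain. Gapdh, usually among the most abundant transcripts, was at 15.1 to 45.5 CPM, and Eno1b, a near-identical copy of Eno1, took 583 to 1464 CPM in proliferating libraries against 247 to 629 CPM for Eno1. In RPKM, Eno1b stood above Ldha, at 602 ± 171 in proliferating and 288 ± 30.5 in differentiating Kat6a+/+ NSPCs. Eno1b is not a member, and the place of Eno1 in the order is therefore not settled. How reads that fit several copies were counted is not given in the sources used here.

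**Figure D1:**
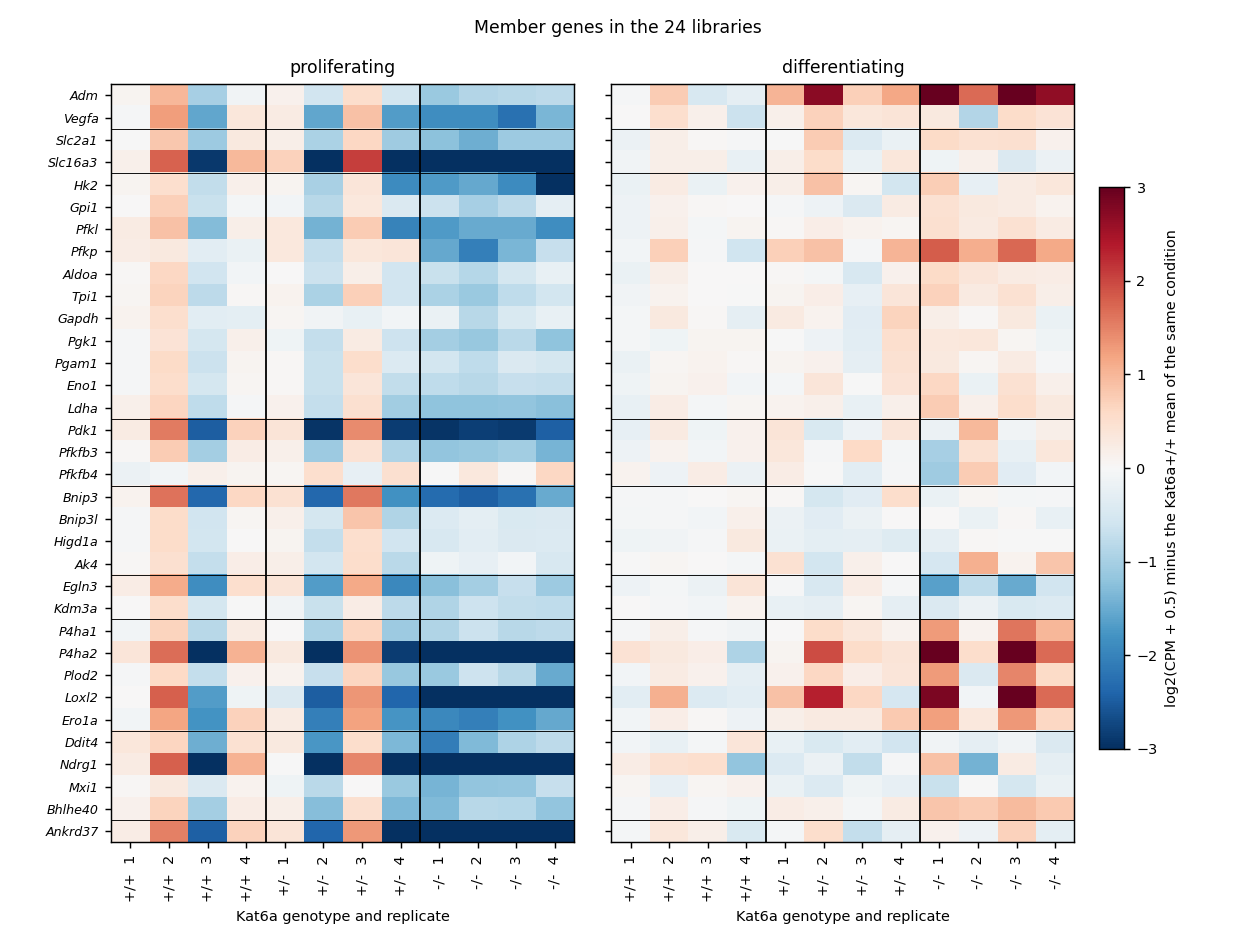
Each row is 1 of the 34 tested members and each column a library, labelled by Kat6a genotype and replicate; colour gives log2(CPM + 0.5) minus the Kat6a+/+ mean of the same condition, limited to 3 either way. In proliferating NSPCs the Kat6a+/+ replicate 3 and Kat6a+/- replicates 2 and 4 have the low colours of the 4 Kat6a-/- libraries, and in differentiating NSPCs the strong colours are those of a few rows.

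In proliferating NSPCs the members rose and fell together from library to library, and libraries of Kat6a+/+ and of Kat6a+/- lay far apart among themselves. Pdk1, the kinase that blocks pyruvate entry into mitochondria (chr2:71703488-71734202), is given as an example. Its level in replicates 1 to 4 was 82.1, 206, 12.1 and 113 CPM for Kat6a+/+, 91.7, 8.62, 187 and 9.27 for Kat6a+/- and 8.61, 9.41, 9.09 and 12.4 for Kat6a-/-. All 4 Kat6a-/- libraries were low, but so were 1 of 4 Kat6a+/+ and 2 of 4 Kat6a+/- libraries, at 8.62 to 12.1 CPM. Kat6a+/+ replicate 3 was the lowest library of its group for 33 of 34 members, whereas it was lowest for 30.6% of all genes tested. Kat6a+/+ replicate 2 was the highest for 33 of 34 members, against 23.0% of genes. Kat6a+/- replicates 1 and 3 both lay above replicates 2 and 4 for 31 of 34 members, against 23.0% of genes.

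The median member gave the same picture. Relative to the Kat6a+/+ mean on the log2 scale it was 0.04, 0.67, -0.81 and 0.15 in the 4 Kat6a+/+ libraries, and 0.13, -0.96, 0.53 and -1.09 in the 4 Kat6a+/- libraries. In Kat6a-/- it was -1.22, -1.15, -0.89 and -1.10. The Kat6a-/- libraries were thus uniformly low, and both other genotypes held low and high libraries. The median over all genes tested stayed within 0.06 of 0 in each library. Sox1 was at 25.0 CPM in Kat6a+/+ replicate 3 and at 22.3 and 31.9 CPM in Kat6a+/- replicates 2 and 4. These values lay above the 4.12 to 6.34 CPM of Kat6a-/-. Sox1 cannot tell Kat6a+/+ from Kat6a+/-, because their ranges overlapped (25.0 to 41.1 and 22.3 to 31.9 CPM). The summed neural stem and cycling markers of Kat6a+/+ replicate 3 were 7795 and 2394 CPM. They lay within and just above those of the other Kat6a+/+ libraries, at 7450.3 to 8322 and 2042 to 2319 CPM.

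Litter and level were partly aligned. The low Kat6a+/+ and Kat6a+/- libraries came from litters 4633 and 5063, which also gave 3 of the 4 Kat6a-/- libraries, and the Kat6a+/+ and Kat6a+/- libraries of litters 4113, 4346 and 4746 were all high. Litter 4633 held 5 proliferating libraries of 3 genotypes, and 1 of them, Kat6a+/- replicate 3, was high. Within it, Kat6a+/- replicate 3 exceeded Kat6a+/+ replicate 3 for 33 of 34 members, with a median difference of 1.46 on the log2 scale. The Kat6a-/- replicates 1 and 2 of that litter differed from the same Kat6a+/+ library by medians of -0.26 and -0.27. In these pairs 26 and 24 of 34 members were lower, beside 54.8% and 54.4% of all genes. Kat6a+/- replicate 2 had 24 of 34 members lower than that library as well (median -0.12), beside 52.2% of genes. In litter 4746, Kat6a-/- replicate 3 was below Kat6a+/+ replicate 4 for 34 of 34 members, with a median of -1.16, beside 49.7% of all genes. In litter 5063, Kat6a-/- replicate 4 was level with its Kat6a+/- littermate (median 0.14), both being low, and in litter 4113 Kat6a+/- replicate 1 was level with Kat6a+/+ replicate 1 (median 0.07), both being high. The size of the Kat6a-/- shift within a litter therefore depended on which littermate it was set against.

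Against this spread, Kat6a-/- vs. Kat6a+/+ NSPCs gave 5 members past the threshold in proliferating culture, all lower. That is 14.7% of 34, beside 13.8% of all tested genes called lower (1693 of 12276) and 30.0% called in either direction, so the share was near the background. The fitted log2 fold-changes were nevertheless below 0 for 33 of 34 members, with a median of -0.94, where the median over all genes was -0.0045. Groups of 4 did not overlap, with Kat6a-/- lower, for 14 of 34 members (17.6% of all genes). These 14 were Hk2, Pfkl, Pfkp, Pgk1, Eno1, Ldha, Slc16a3, Pfkfb3, Kdm3a, P4ha2, Loxl2, Mxi1, Ndrg1 and Ankrd37. In bulk RNA, fewer cells of a type and less RNA per cell cannot be told apart.

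Most tested markers of astrocytes moved with the genotype as well. The 6 astrocyte markers summed to 625 to 788 CPM in proliferating Kat6a+/+ libraries and to 1091 to 1979 CPM in Kat6a-/-. In Kat6a+/- replicates 1 to 4 the sum was 676, 777, 880.1 and 1497 CPM. Slc1a3 made up most of the sum, with group means of 652 (Kat6a+/+) and 1320 CPM (Kat6a-/-). Of 5 tested, 4 were higher in Kat6a-/- (Gfap, Slc1a2, S100b and Slc1a3, by 3.51, 2.36, 2.23 and 0.91 on the log2 scale). Aldh1l1 went the other way, with a log2 fold-change of -1.55 ± 0.69 (SE), and did not pass (limma-voom, FDR = 0.109). Of the 8 neural stem and progenitor markers 2 were higher and 2 lower, and the lower ones were Vim (-0.47) and Nes (-0.36). The part of these markers' cells or states in the members' differences was not tested.

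The called members were 4 glycolytic enzymes and 1 transcription factor gene. Hk2 encodes the hexokinase that traps glucose in the cell (chr6:82699740-82751469). It was at 154, 205, 85.6 and 159 (Kat6a+/+), 152, 72.6, 184 and 38.8 (Kat6a+/-) and 44.3, 49.4, 38.9 and 17.9 CPM (Kat6a-/-), and its log2 fold-change was -1.80 ± 0.50 (SE), FDR = 0.0216. The Kat6a-/- libraries all lay under the Kat6a+/+ range, while Kat6a+/- replicate 4 lay among them. Pfkp, the platelet-type phosphofructokinase that commits sugar to glycolysis, was at 59.3, 61.4, 40.6 and 43.6 (Kat6a+/+), 63.3, 30.4, 64.2 and 64.8 (Kat6a+/-) and 17.2, 11.9, 19.2 and 30.9 CPM (Kat6a-/-), with a log2 fold-change of -1.29 ± 0.29 (SE), FDR = 0.00661. Kat6a+/+ replicate 3 was close to replicate 4 and Kat6a+/- replicate 4 was level with replicates 1 and 3, unlike the pattern of Pdk1, and Kat6a+/- replicate 2 alone was at the level of a Kat6a-/- library. Pgk1, the X-linked phosphoglycerate kinase that makes ATP, was at 91.1, 124, 65.1 and 105 (Kat6a+/+), 85.8, 57.1, 110.4 and 60.3 (Kat6a+/-) and 46.0, 42.1, 53.3 and 40.1 CPM (Kat6a-/-), with a log2 fold-change of -0.92 ± 0.23 (SE), FDR = 0.01253.

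Ldha was at 1136, 1581, 601 and 992 (Kat6a+/+), 1116, 620.2, 1410.1 and 492 (Kat6a+/-) and 438, 441, 450.5 and 424 CPM (Kat6a-/-), with a log2 fold-change of -1.02 ± 0.32 (SE), FDR = 0.0318. The 4 Kat6a-/- libraries spanned 424 to 450.5 CPM, whereas those of Kat6a+/+ spanned 601 to 1581 CPM. Mxi1, which encodes a repressor that opposes MYC (chr19:53298852-53364241), was at 60.8, 73.3, 44.4 and 63.8 (Kat6a+/+), 54.1, 34.0, 60.1 and 27.3 (Kat6a+/-) and 22.2, 25.9, 26.5 and 36.6 CPM (Kat6a-/-), with a log2 fold-change of -0.98 ± 0.27 (SE), FDR = 0.0164. Its Kat6a+/+ and Kat6a-/- libraries did not overlap, and Kat6a+/- replicates 2 and 4 fell among the Kat6a-/- values.

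**Figure D2:**
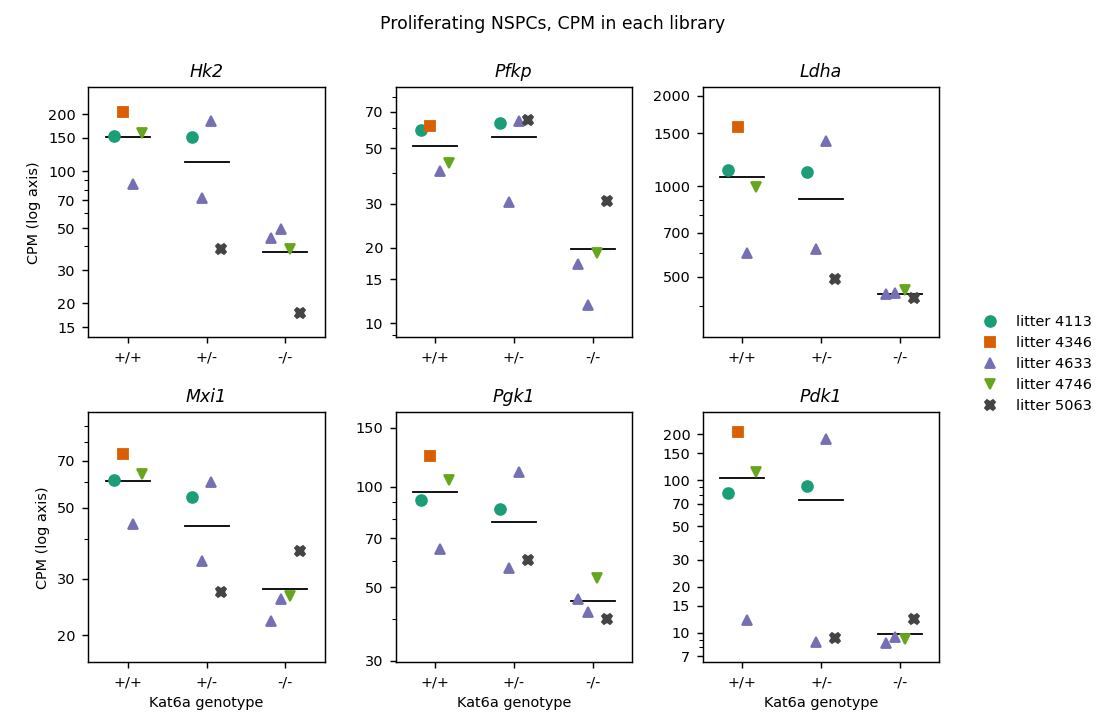
CPM on a log axis of 6 members in each proliferating library, by Kat6a genotype; shape and colour give the litter and a black line the group mean. For Pdk1 the Kat6a-/- libraries (8.61 to 12.4 CPM) overlap the Kat6a+/+ library of litter 4633 (12.1 CPM), and for Pfkp the Kat6a-/- libraries lie under all Kat6a+/+ libraries.

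Pdk1 and Slc2a1 did not pass the test. Pdk1 had a log2 fold-change of -2.11 ± 1.63 (SE), FDR = 0.354 and Slc2a1, the main glucose transporter, of -0.98 ± 0.47 (SE), FDR = 0.140. Slc2a1 was at 104, 183, 48.7 and 128 (Kat6a+/+), 118, 53.5, 161 and 49.4 (Kat6a+/-) and 44.5, 37.8, 48.7 and 48.9 CPM (Kat6a-/-), so that Kat6a+/+ replicate 3 fell inside the Kat6a-/- range. Other members were near 0 in Kat6a-/- and ranged widely in Kat6a+/+. P4ha2, a collagen prolyl hydroxylase subunit, was at 10.5, 27.1, 0.503 and 17.3 CPM in Kat6a+/+ and at 0 to 0.299 CPM in Kat6a-/-, where a count of 0 in replicate 1 allows up to 0.340 CPM (3 counts; counting error only). Slc16a3, the lactate exporter, was at 30.7, 94.2, 3.22 and 54.3 (Kat6a+/+), 44.4, 2.81, 116 and 0.195 (Kat6a+/-) and 0.387 to 0.986 CPM (Kat6a-/-). Ndrg1, a stress-responsive growth regulator, and Ankrd37, an ankyrin repeat gene, had the same shape, with 2.92 to 99.9 and 1.51 to 30.8 CPM in Kat6a+/+ and at most 1.10 and 0.773 CPM in Kat6a-/-. None of these passed the threshold: the 95% confidence interval of the log2 fold-change ran from -10.3 to 2.23 for P4ha2 and from -12.2 to 5.37 for Slc16a3.

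The other members of each role were alike in sign. Of the 11 glycolytic enzymes all had estimates below 0 and 4 passed the test. The 5 collagen and secretory folding members had estimates from -0.62 (P4ha1) to -4.05 (P4ha2), and none passed. Vegfa, the vessel growth factor, was at 226, 546, 78.1 and 291 (Kat6a+/+) and 48.7 to 89.2 CPM (Kat6a-/-), with a log2 fold-change of -1.52 ± 0.74 (SE), FDR = 0.145. Among the mitochondrial members, Bnip3, a mitophagy receptor, was at 37.0, 107, 6.34 and 52.9 (Kat6a+/+) and 5.93 to 11.7 CPM (Kat6a-/-), while the estimate for Ak4, an adenylate kinase, was only -0.07. Pfkfb4, a regulator of phosphofructokinase, was the 1 member with an estimate above 0, at 0.31. Ddit4, an inhibitor of mTOR signalling, had an estimate of -0.96 and did not pass.

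Which members passed depended on the libraries and on the litter term. Without Kat6a+/+ replicate 3 the count rose from 5 to 12, adding Adm, Eno1, Kdm3a, Pfkfb3, Plod2, Slc2a1 and Vegfa. Without litter 4746, which holds Kat6a+/+ replicate 4 and Kat6a-/- replicate 3, or with litter as a fixed term, only Pfkp remained, and without Kat6a-/- replicate 3 only Pfkp and Pgk1 did. Pfkp passed in all 17 fits that left out a library or a litter, Pgk1 in 16, Mxi1 in 14, Hk2 in 13 and Ldha in 6. Without litter 4113, whose embryo label did not hold, 4 members passed. The edgeR quasi-likelihood test gave 19 members and DESeq2 gave 21, all lower.

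Kat6a+/- vs. Kat6a+/+ NSPCs gave 0 members, and 0 of 12276 genes, past the threshold in proliferating culture by limma-voom. At an unadjusted p under 0.05 these counts were 0 members and 912 genes. The median estimate of the members was -0.17. It ran from -0.56 to 0.03 with a library or litter left out, and was above 0 without Kat6a+/+ replicate 2 and without Kat6a+/- replicate 2 or 4. No member had groups that did not overlap (2.64% of genes lower, 1.89% higher). Kat6a-/- vs. Kat6a+/- NSPCs gave 2 members lower and 0 higher, Pfkp (log2 fold-change -1.39 ± 0.28, SE, FDR = 0.00834) and Pgk1 (-0.74 ± 0.23, SE, FDR = 0.0479), beside 6.30% of genes called lower and 8.47% called higher (14.8% in all). Groups did not overlap for 7 members, all lower in Kat6a-/- (6.07% of genes lower, 6.22% higher).

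In differentiating NSPCs many members had the opposite direction. The SD of the median member between libraries, pooled over the 3 genotypes, was 0.12 on the log2 scale, against 0.59 in proliferating NSPCs. Single members of the Kat6a-/- group spread more widely than in proliferating culture, however: the highest library exceeded the lowest 8.47-fold for Adm and 10.3-fold for Loxl2, against 1.26-fold and 1.64-fold. Of 34 members, 15 were higher in Kat6a-/- vs. Kat6a+/+ NSPCs and 4 were lower. These are 44.1% and 11.8%, beside 26.7% and 27.7% of all 13339 genes (54.4% in either direction). The median log2 fold-change was 0.34, against -0.0158 over all genes. Groups did not overlap for 8 members that were higher (12.2% of genes) and for 2 that were lower (14.7% of genes). The fit weighted libraries by their quality, and Kat6a-/- replicate 3 held 69.0% of the weight within its group, with 4.22% for replicate 2.

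The largest fitted differences were in a secreted signal and in genes of collagen modification. Adm, which encodes the vasodilator peptide adrenomedullin (chr7:110226858-110229027), was at 1.16, 2.40, 0.724 and 0.922 (Kat6a+/+), 2.95, 10.6, 2.28 and 3.29 (Kat6a+/-) and 42.2, 4.99, 28.3 and 10.2 CPM (Kat6a-/-). All 4 Kat6a-/- libraries lay above all 4 Kat6a+/+ libraries (log2 fold-change 4.49 ± 0.41, SE, FDR = 6.59e-06). P4ha2 was at 1.76, 1.53, 1.40 and 0.377 (Kat6a+/+), 1.27, 5.95, 1.95 and 1.68 (Kat6a+/-) and 12.9, 1.91, 17.2 and 4.91 CPM (Kat6a-/-), with a log2 fold-change of 3.22 ± 0.49 (SE), FDR = 1.81e-04. Loxl2, a lysyl oxidase that crosslinks collagen (chr14:69846209-69933283), was at 30.9, 81.2, 28.9 and 31.0 (Kat6a+/+), 71.4, 197, 60.1 and 27.2 (Kat6a+/-) and 277, 36.7, 379 and 126 CPM (Kat6a-/-), with a log2 fold-change of 3.14 ± 0.44 (SE), FDR = 1.05e-04. For both genes Kat6a-/- replicate 2 stood near the Kat6a+/+ level, and Kat6a+/- replicate 2 was high in its group.

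P4ha1, the other prolyl hydroxylase subunit among the members (chr10:59159092-59209126), was at 128, 149, 128 and 122 (Kat6a+/+), 133, 192, 167 and 141 (Kat6a+/-) and 318, 142, 401 and 263 CPM (Kat6a-/-), with a log2 fold-change of 1.46 ± 0.15 (SE), FDR = 1.35e-05. Plod2, a lysyl hydroxylase, and Ero1a, the oxidase that forms disulphide bonds in the endoplasmic reticulum, were also higher, by 1.29 and 1.22 on the log2 scale. All 5 members of this role passed the test, but Plod2 and P4ha2 did not with litter as a fixed term. Without quality weights Loxl2 and Plod2 did not pass. Without litter 4746 the log2 fold-changes of P4ha2, Loxl2 and P4ha1 dropped to 1.26, 1.21 and 0.55. Kat6a-/- replicates 1 and 3 were the 2 highest libraries for each. Over all 34 members, replicates 1 and 3 both lay above replicates 2 and 4 for 19, against 32.0% of all genes tested.

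**Figure D3:**
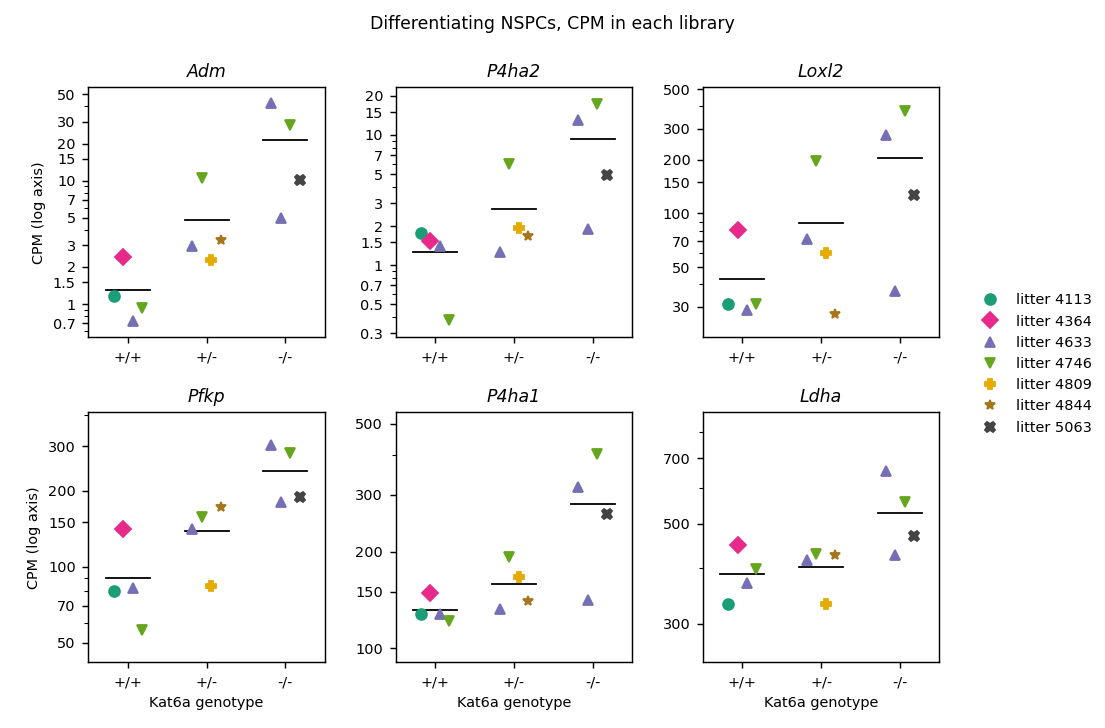
CPM on a log axis of 6 members in each differentiating library, by Kat6a genotype; shape and colour give the litter and a black line the group mean. Adm and Pfkp are higher in all 4 Kat6a-/- than in all 4 Kat6a+/+ libraries, whereas Kat6a-/- replicate 2 (litter 4633, lower triangle) falls near the Kat6a+/+ values for Loxl2 and P4ha1.

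Cell type markers differed between the genotypes as well, but not all in the pattern of these collagen genes. The meningeal fibroblast sum was lowest in Kat6a-/- replicate 2, as P4ha2, Loxl2 and P4ha1 were, whereas the astrocyte sum was highest there. The 7 meningeal fibroblast markers summed to 263, 33.0, 231 and 159 CPM in Kat6a-/- replicates 1 to 4, and to 23.6 to 57.9 CPM in Kat6a+/+. In Kat6a+/- they summed to 40.6 to 114 CPM, and the highest was replicate 2, the library with the most Loxl2. Most of this sum was Col1a1 (107 ± 72.3 CPM in Kat6a-/-, SD, n = 4) and Foxc1 (56.7 CPM). Col1a2 was at 0.531 to 17.0 CPM in Kat6a-/- and 0.335 to 1.20 CPM in Kat6a+/+. Of the other markers, Dcn, Col3a1 and Twist1 stayed at or under 1.38 CPM in each Kat6a-/- library and Lum was at 0 in all of them. The 3 markers that were tested (Col1a1, Col1a2 and Foxc1) were all higher. The 8 neural stem and progenitor markers summed to 8477 to 12486 CPM in Kat6a-/- and 6521 to 8227 CPM in Kat6a+/+, and 3 were called higher and 4 lower. Vim made up most of that sum (7472 ± 1262 CPM in Kat6a-/- and 4699 ± 654 CPM in Kat6a+/+). The 5 cycling markers summed to 33.3 to 156 CPM in Kat6a-/- and 436 to 764 CPM in Kat6a+/+. The 6 astrocyte markers summed to 1382, 4912, 1509 and 2603 CPM in Kat6a-/- replicates 1 to 4 and to 1788 to 2517 CPM in Kat6a+/+. Of these 6, 1 was called higher and 3 lower. Neuron markers summed to 459 to 770 CPM in Kat6a-/- and 517 to 669 CPM in Kat6a+/+, and oligodendrocyte lineage markers to 698 to 1231 and 1201 to 1421 CPM. Most of the neuron sum was Map2 (533 ± 140 CPM in Kat6a-/- and 468 ± 24.1 CPM in Kat6a+/+). Of the 6 neuron markers 3 were called lower and 1 higher. Dcx was at 0.963 to 7.86 CPM in Kat6a-/- and 15.0 to 70.6 CPM in Kat6a+/+, and Stmn2 at 0.964 to 3.94 and 0 to 0.220 CPM. Endothelial markers summed to 10.6 to 36.8 CPM in Kat6a-/- and 46.4 to 72.9 CPM in Kat6a+/+, and pericyte markers to 13.5 to 30.7 and 9.01 to 15.3 CPM. The endothelial sum was mostly Kdr (22.1 ± 14.7 CPM in Kat6a-/- and 63.8 ± 12.6 CPM in Kat6a+/+). The pericyte sum was mostly Pdgfrb (18.7 ± 8.14 and 11.1 ± 3.07 CPM). The part of these cells or states in the members' differences was not tested.

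Of the 11 glycolytic enzymes, 7 were higher, 0 were lower and all 11 estimates were above 0. Pfkp was at 80.2, 141, 82.6 and 56.3 (Kat6a+/+), 141, 157, 83.6 and 172 (Kat6a+/-) and 303, 181, 284 and 189 CPM (Kat6a-/-), with a log2 fold-change of 1.73 ± 0.21 (SE), FDR = 3.46e-05. Ldha was at 332, 449, 370.3 and 398 (Kat6a+/+), 416, 428, 332 and 426 (Kat6a+/-) and 656, 427, 559 and 471 CPM (Kat6a-/-), with a log2 fold-change of 0.62 ± 0.10 (SE), FDR = 3.21e-04. For Pfkp the Kat6a-/- and Kat6a+/+ libraries did not overlap, and for Ldha Kat6a-/- replicate 2 fell within the Kat6a+/+ range. Pfkl, the liver-type phosphofructokinase, Tpi1, Eno1, Aldoa (aldolase) and Gpi1 rose by 0.50, 0.49, 0.44, 0.37 and 0.31 on the log2 scale. Slc2a1 was at 83.8, 107, 98.1 and 92.3 (Kat6a+/+), 94.7, 161, 71.2 and 82.2 (Kat6a+/-) and 142, 131, 133 and 104 CPM (Kat6a-/-), with a log2 fold-change of 0.52 ± 0.14 (SE), FDR = 0.00784. Kat6a-/- replicate 4 fell just inside the Kat6a+/+ range.

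Several members that stood out in proliferating NSPCs did not in differentiating NSPCs. Pdk1 was at 30.8, 44.1, 33.5 and 39.9 (Kat6a+/+), 47.8, 26.4, 32.9 and 47.7 (Kat6a+/-) and 32.6, 73.0, 34.0 and 41.7 CPM (Kat6a-/-), with a log2 fold-change of 0.07 ± 0.16 (SE), FDR = 0.747. Hk2 was at 26.4, 36.0, 26.5 and 33.2 (Kat6a+/+), 34.4, 55.9, 31.3 and 20.5 (Kat6a+/-) and 50.8, 25.3, 35.9 and 38.1 CPM (Kat6a-/-), with a log2 fold-change of 0.43 ± 0.18 (SE), FDR = 0.0600. Pgk1 was at 96.1, 91.5, 106 and 106 (Kat6a+/+), 99.5, 90.0, 79.8 and 142 (Kat6a+/-) and 124, 126, 104 and 90.7 CPM (Kat6a-/-), with a log2 fold-change of 0.09 ± 0.11 (SE), FDR = 0.507. Groups overlapped for all 3 genes. None of the 4 mitochondrial members (Bnip3, Bnip3l, Higd1a, Ak4) passed the test, with estimates between -0.06 and 0.12. Slc16a3 and Ankrd37 reached at most 1.07 and 1.27 CPM in any differentiating library.

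Bhlhe40, which encodes a basic helix-loop-helix repressor, was close to level across the Kat6a-/- libraries. It was at 41.1, 48.1, 40.7 and 38.1 (Kat6a+/+) and 74.6, 71.0, 81.4 and 72.7 CPM (Kat6a-/-), with a log2 fold-change of 0.94 ± 0.07 (SE), FDR = 2.49e-06, and the groups did not overlap. The 4 lower members were Egln3, a HIF prolyl hydroxylase, Kdm3a, a histone demethylase, Mxi1 and Pfkfb4. Egln3 was at 129, 138, 126 and 189.5 (Kat6a+/+), 139, 103, 168 and 141 (Kat6a+/-) and 46.1, 84.2, 50.4 and 95.8 CPM (Kat6a-/-), below both other genotypes in all 4 libraries (log2 fold-change -1.32 ± 0.16, SE, FDR = 4.73e-05). Kdm3a, Mxi1 and Pfkfb4 had log2 fold-changes of -0.43, -0.54 and -0.48. Neither Mxi1 nor Pfkfb4 passed without quality weights, and the unweighted means of Pfkfb4 were 15.8 ± 2.09 (Kat6a+/+) and 15.2 ± 8.27 CPM (Kat6a-/-, SD, n = 4 each).

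The count of 15 higher and 4 lower changed when libraries were left out, weights dropped or litter entered. With litter as a fixed term 7 members were higher and 1 lower, and with limma-voom and a litter block 6 and 2. Without Kat6a-/- replicate 3, or without replicate 1, Adm and Bhlhe40 alone remained among the higher members, with 0 and 1 lower. Without litter 4746 the counts were 2 and 1, without litter 4633 they were 6 and 1, and without Kat6a-/- replicate 2, the least weighted library, they were 20 and 5. Without Kat6a+/+ replicate 1, whose embryo label did not hold, they were 12 and 3. Without quality weights 8 members were higher and 2 lower. The 8 were Adm, Bhlhe40, Ero1a, Ldha, P4ha1, P4ha2, Pfkl and Pfkp. Loxl2, Plod2, Slc2a1, Tpi1, Eno1, Aldoa and Gpi1 thus lost the call, along with Mxi1 and Pfkfb4. Adm and Bhlhe40 passed in all 19 fits that left out a library or a litter (a litter with a single library repeats that library's fit), and the other 13 higher members passed in 13 to 16 of them.

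**Figure D4:**
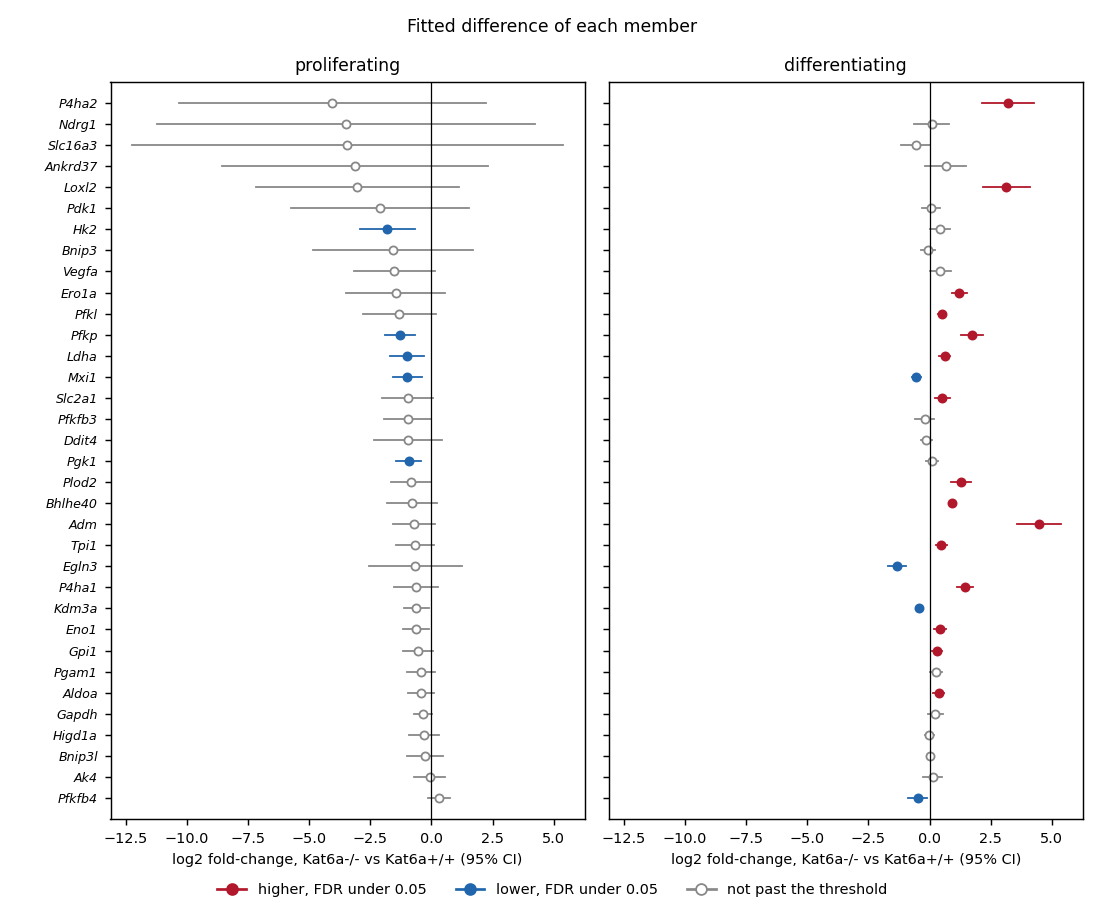
Fitted log2 fold-change of the 34 tested members in Kat6a-/- vs. Kat6a+/+ NSPCs with 95% confidence intervals, in proliferating (left) and differentiating (right) culture; filled points passed the threshold (red higher, blue lower). In proliferating NSPCs 33 of 34 points lie below 0 with wide intervals, and in differentiating NSPCs 25 of 34 lie above 0.

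Within litters the differentiating libraries showed the same direction. Kat6a-/- replicates 1 and 2 of litter 4633 lay above their Kat6a+/+ littermate by a median of 0.30 and 0.18 on the log2 scale. In these pairs 22 and 20 of 34 members were higher and 12 and 14 lower, beside 51.8% and 48.7% of all genes lower. In litter 4746, Kat6a-/- replicate 3 exceeded Kat6a+/+ replicate 4 by a median of 0.31, with 22 of 34 members higher and 11 higher by more than 1, beside 11.7% of all genes higher by more than 1. Of all genes 53.6% were lower in that pair. Kat6a+/- littermates were set against the same Kat6a+/+ libraries as well. In litter 4633, 20 of 34 members were higher in Kat6a+/- replicate 1 (median 0.01). In litter 4746, 21 of 34 were higher in Kat6a+/- replicate 2 (median 0.18).

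Kat6a+/- vs. Kat6a+/+ NSPCs again gave 0 members and 0 of 13339 genes past the threshold in differentiating culture by limma-trend. At an unadjusted p under 0.05 there were 9 members and 1926 genes. Higd1a alone had groups that did not overlap, lower in Kat6a+/- (1.36% of genes lower, 1.42% higher). Without Kat6a+/- replicate 3 (litter 4809), 1 member was higher and 1 lower. Kat6a-/- vs. Kat6a+/- NSPCs gave 14 members higher and 3 lower, beside 19.1% and 18.5% of genes (37.5% in all). Groups did not overlap for 4 higher members and 1 lower (6.74% and 9.48% of genes). Egln3 (-1.35 ± 0.19, SE, FDR = 4.60e-04), Bhlhe40 (0.75 ± 0.08, SE, FDR = 7.65e-05) and the 5 collagen and secretory folding members were among them, Egln3 and Bhlhe40 without overlap between the groups. Without Kat6a-/- replicate 3 no member passed in this comparison, and without replicate 1 only Bhlhe40 did. The counts were 2 higher and 1 lower with a term for Y-linked reads, 3 and 1 with edgeR, 1 and 1 with limma-voom and a litter block, and 1 and 0 with litter as a fixed term.

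The difference between conditions was tested directly, as the Kat6a-/- effect in differentiating minus that in proliferating NSPCs over all 24 libraries. Of 34 members, 13 passed and all were positive (38.2%), beside 6.36% of 13590 genes that passed on that side, 7.58% on the other and 13.9% on either. The median over the members was 1.64 and over all genes -0.0007. The estimate was above 0 for 33 of 34 members. Among those that passed, the largest were Adm (4.66 ± 1.20, SE, FDR = 0.0128), Pfkp (2.89 ± 0.50, SE, FDR = 6.61e-04) and Hk2 (2.32 ± 0.62, SE, FDR = 0.0160). Pgk1 (1.20 ± 0.30, SE, FDR = 0.0111) and Ldha (1.64 ± 0.37, SE, FDR = 0.00570) passed as well. Of the 13, 8 were glycolytic enzymes (Hk2, Pfkl, Pfkp, Aldoa, Tpi1, Pgk1, Eno1 and Ldha), and the others were Adm, Slc2a1, P4ha1, Plod2 and Bhlhe40. This estimate contains the spread of the proliferating Kat6a+/+ libraries. The count was 19 without proliferating Kat6a+/+ replicate 3 and 7 to 9 without any other Kat6a+/+ library, 7 to 17 without a Kat6a-/- library, 7 when either library labelled embryo 7 of litter 4113 was left out, and 7 of the 13 passed in all 24 such fits (Adm, Pfkp, Hk2, Ldha, Pgk1, P4ha1 and Bhlhe40).

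**Figure D5:**
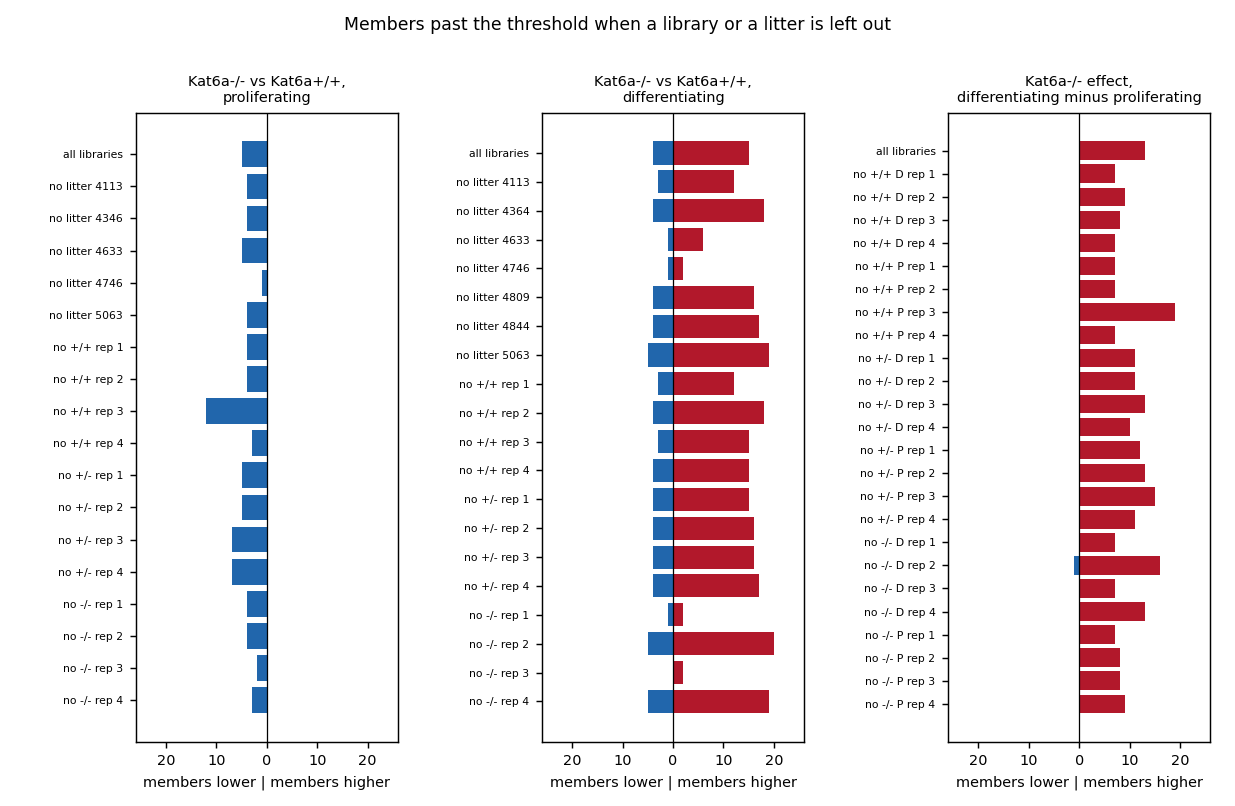
Number of the 34 tested members past the threshold (bars right of 0 higher, left of 0 lower) with all libraries and with each library or litter left out, for Kat6a-/- vs. Kat6a+/+ in each condition and for the difference between conditions; P and D stand for proliferating and differentiating. The count in proliferating NSPCs ranges from 1 to 12 and in differentiating NSPCs from 2 to 25.

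The 5 embryo labels with Y-linked reads in both or in neither of their libraries were followed from one condition to the other. Such agreement in sex does not show that both libraries came from 1 embryo. Pdk1 went from 187 CPM in proliferating to 47.8 CPM in differentiating culture in Kat6a+/- embryo 5 of litter 4633. It went from 12.1 to 33.5 CPM in Kat6a+/+ embryo 8 of litter 4633, and from 9.41 to 73.0, 9.09 to 34.0 and 12.4 to 41.7 CPM in the 3 Kat6a-/- embryos. The median member fell by 0.98 on the log2 scale in the Kat6a+/- embryo, which was high in proliferating culture. It rose by 0.64 in Kat6a+/+ embryo 8 and by 0.98, 0.84 and 0.90 in the Kat6a-/- embryos, which were low in it. Between the libraries labelled embryo 7 of litter 4113, which differ in sex, the median difference was -0.65 and Pdk1 was at 82.1 and 30.8 CPM. By its label, the same Kat6a+/+ embryo that was low in proliferating culture, with 12.1 CPM of Pdk1, was level with its group in differentiating culture. Its median member there was 0.02 from the Kat6a+/+ mean.

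In Kat6a+/+ NSPCs the change from proliferating to differentiating culture lowered 15 members and raised 7, beside 36.2% and 36.7% of all genes (72.9% in either direction). The median log2 fold-change was -0.54. It was -0.15 without proliferating Kat6a+/+ replicate 2 and -0.78 without replicate 3. The log2 fold-changes of Adm, Vegfa, Ero1a, Hk2 and Ldha were -5.61, -2.97, -2.63, -2.25 and -1.38. Egln3 rose by 1.98, Pfkfb4 by 1.33, Pfkfb3, which makes the activator of phosphofructokinase, by 0.89 and Higd1a, a mitochondrial inner membrane protein gene, by 0.75. The counts were 12 lower and 7 higher without proliferating Kat6a+/+ replicate 1, and 18 and 3 without replicate 3. Kit and condition go together in this comparison.

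Genes outside the member list were counted for the same pathway. Of 11 genes that regulate HIF, 0 were called in proliferating Kat6a-/- vs. Kat6a+/+ NSPCs, beside 16.2% of all genes called higher and 13.8% lower. Their estimates were above 0 for 5 and below 0 for 6. Hif1a itself was at 264 to 290.5 CPM in Kat6a+/+ and 273 to 287 CPM in Kat6a-/-. Egln1, a HIF prolyl hydroxylase gene, was at 153 to 314 CPM in Kat6a+/+ and 117 to 147 CPM in Kat6a-/-. These groups did not overlap (17.6% of all genes did so with Kat6a-/- lower). In differentiating NSPCs 4 of 10 tested were higher and 3 lower, beside 26.7% and 27.7% of all genes. Hif1a rose from 161 to 170 CPM in Kat6a+/+ to 219 to 299 CPM in Kat6a-/- (log2 fold-change 0.77 ± 0.08, SE, FDR = 1.07e-05). Cited2, which competes with HIF1A for its coactivators, rose by 1.31, Epas1 by 1.28 and Arnt by 0.36 on the log2 scale. Vhl, Siah2 and Hif1an fell by 0.34, 0.28 and 0.16.

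Other genes of glycolysis and pyruvate use had estimates on both sides of 0 in proliferating NSPCs, 10 above and 15 below, with a median of -0.03. Of these 25, 5 were higher and 2 lower in Kat6a-/- (20% and 8%), beside 16.2% and 13.8% of all genes. Aldoc, the brain aldolase, was at 82.5 to 136 CPM in Kat6a+/+ and 172 to 282 CPM in Kat6a-/- (log2 fold-change 1.19 ± 0.19, SE, FDR = 0.00108), and Pdk2, a pyruvate dehydrogenase kinase, rose by 1.15. Ldhb rose by 0.61, and Tkt of the pentose phosphate pathway fell by 0.49. In differentiating NSPCs 6 of 26 (23.1%) were higher, led by Bpgm and Eno2 with 1.16 and 1.14, and 3 were lower, beside 26.7% and 27.7% of all genes. Bpgm was at 57.8 to 68.7 CPM in Kat6a+/+ and 53.0 to 172 CPM in Kat6a-/-, so that the groups overlapped. Slc16a1, a lactate transporter gene, had a fitted log2 fold-change of -0.87, but its unweighted means were level, at 422 ± 76.6 (Kat6a+/+) and 420.2 ± 364 CPM (Kat6a-/-, SD, n = 4 each).

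Of 28 tested other hypoxia response genes, 2 were higher and 4 lower in proliferating Kat6a-/- NSPCs, beside 16.2% and 13.8% of all genes. Their estimates were above 0 for 7 and below 0 for 21, with a median of -0.35, against -0.0045 over all genes. Car12, a carbonic anhydrase, was at 1.01 to 2.38 CPM in Kat6a+/+ and 5.58 to 12.9 CPM in Kat6a-/- (log2 fold-change 2.02 ± 0.29, SE, FDR = 0.000351), and Stc2, a secreted glycoprotein gene, was at 10.9 to 30.0 and 3.59 to 7.34 CPM (log2 fold-change -1.65 ± 0.45, SE, FDR = 0.0168). In differentiating NSPCs 10 of 31 were higher and 6 lower, beside 26.7% and 27.7% of all genes. Lox, a collagen crosslinking oxidase, was among the higher ones with a fitted log2 fold-change of 5.33. It ranged from 2.49 to 135 CPM among the 4 Kat6a-/- libraries and overlapped the Kat6a+/+ range.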

How the data were processed

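The authors sequenced RNA of 24 NSPC cultures and deposited 1 table of read counts per gene and library, made with featureCounts on mouse genome build mm39 per the labels and the study's methods. Versions, the strand setting and the handling of reads that fit several genes are not given in the sources used here. The counts were taken as deposited, without normalization. Groups, litters and embryo numbers came from the sample labels. Within a condition, the p-values measure the spread between cultures of different embryos. In the fits over all 24 libraries, 6 embryo labels gave a library in each condition, and this pairing did not enter the main fit.

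Genes were restricted to the 21030 protein-coding ones (biotype by Entrez ID, 52 of 26411 without one), without Xist and Y-linked genes, and filtered with filterByExpr in edgeR 4.0.16, which left 12276 genes in proliferating, 13339 in differentiating and 13590 in all libraries. For proliferating libraries, limma-voom (limma 3.58.1, R 4.3.3) was run after TMM scaling, litter entering as a random effect (correlation 0.287) with robust moderation. For differentiating libraries, limma-trend was run on log2 CPM (prior count 2) with library quality weights. The difference between conditions and the comparison of conditions in Kat6a+/+ used limma-voom on the 24 libraries, again with a random litter effect (correlation 0.00365). P-values were adjusted by Benjamini-Hochberg over all genes tested, and the threshold was an FDR of 0.05. Printed CPM used TMM factors over all 24 libraries and carry no weights. Heat map values are log2(CPM + 0.5).

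The members and the lists were chosen with earlier results of these data known. Values in every library are given for the 5 called members with the largest absolute log2 fold-change in Kat6a-/- vs. Kat6a+/+ in each condition, for Slc2a1, Hk2, Pgk1, Ldha and Pdk1, for members called in a Kat6a+/- comparison and for the 3 with the smallest p in the difference between conditions. Of each pathway list, up to 4 called genes per condition with the largest change were named. Vegfa, Slc16a3, Bnip3, Egln3 and Bhlhe40 were also given by library, chosen after their values were seen. Egln1 was likewise chosen after its values were seen and is given by its range in each genotype. Alternatives were edgeR quasi-likelihood, DESeq2 1.42.0, other scalings, filters, weights and litter terms, a replicate block, a term for Y-linked reads, and each library or litter left out, in 100 fits. The fitting steps were tested on simulated counts. No replicate pair of a group agreed within sampling noise (lowest chi-square per degree of freedom 5.55). Count-based limits cover counting error only. Positions are from GENCODE on GRCm39.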

Additional observations from a re-analysis of the deposited data

Results flagged for a closer look

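In 5 of 72 groups of 4 libraries, 1 library stood apart from the other 3 by a gap that was a large share of the group's range (Dixon's test at 95%), and chance gives about 1 in 20 such groups. Pfkp in proliferating Kat6a+/- replicate 2 was at 30.4 CPM, against 63.3 to 64.8 CPM in the others (gap over range 0.957). In differentiating NSPCs, Loxl2 in Kat6a+/+ replicate 2 was at 81.2 CPM, against 28.9 to 31.0 CPM (0.96). Kat6a+/- replicate 2 had 10.6 CPM of Adm, against 2.28 to 3.29 CPM (0.878), and 5.95 CPM of P4ha2, against 1.27 to 1.95 CPM (0.855). Ldha in Kat6a+/- replicate 3 was at 332 CPM, against 416 to 428 CPM (0.872).

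The Kat6a-/- effect differed between conditions by the test of the difference itself (limma-voom, FDR under 0.05) for 13 members. The differences, as the log2 fold-change in differentiating minus that in proliferating NSPCs, were 4.66 for Adm, 2.89 for Pfkp, 2.32 for Hk2, 2.02 for Pfkl and 1.90 for Bhlhe40. They were 1.81 for P4ha1, 1.76 for Plod2, 1.64 for both Slc2a1 and Ldha, 1.23 for Tpi1, 1.2 for Pgk1, 1.01 for Eno1 and 0.92 for Aldoa.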

How the results depend on the processing

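The number of members past the threshold depended strongly on the method. In Kat6a-/- vs. Kat6a+/+ NSPCs it was 21 (DESeq2), 19 (edgeR), 14 (only both compared genotypes fitted) and 1 (litter as a fixed term) in proliferating culture. In differentiating culture it was 11 (edgeR), 8 (limma-voom with a litter block, or litter as a fixed term), 9 (random litter block without weights) and 10 (no weights), and the median was 0.19 with library totals, where the median of all genes moved to -0.166. In Kat6a-/- vs. Kat6a+/- proliferating NSPCs it was 10 (DESeq2) and 1 (edgeR, fixed litter term, no filter, no litter term or replicate block). In differentiating NSPCs it was 9 (DESeq2), 4 (edgeR), 2 (limma-voom with a litter block), 1 (fixed litter term), 10 (no filter) and 3 (no weights, random litter block without weights, or a term for Y-linked reads, the last with a median of 0.14). The difference between conditions gave 24 (DESeq2), 21 (edgeR), 7 (fixed litter term) and 8 members (replicate block). Replicate numbers did not pair the samples throughout: deviations correlated by -0.43 to 0.54 in proliferating and -0.48 to 0.16 in differentiating culture, over 0.1 in 4 and 1 of 12 pairs. Some libraries with the same number also shared a litter. Of these, proliferating Kat6a+/- and Kat6a-/- replicates 4 (litter 5063) correlated by 0.54 and differentiating replicates 1 of these genotypes (litter 4633) by -0.37. The replicate block changed no other count by over 1.5 times. Leaving out a library or litter gave 1 to 12 members in Kat6a-/- vs. Kat6a+/+ proliferating and 2 to 25 in differentiating culture, where the median ran from 0.19 to 0.38. It gave 1 to 5 and 0 to 24 in Kat6a-/- vs. Kat6a+/-, 0 to 2 in Kat6a+/- vs. Kat6a+/+ differentiating culture, and 7 to 19 for the difference between conditions. In differentiating Kat6a-/- vs. Kat6a+/+ NSPCs 2 estimates near 0 changed sign. Pdk1 was -0.0946 with library totals, -0.0953 with the Y-linked term, and -0.0621 to 0.69 with a library or litter left out. Pgk1 was -0.064 and -0.0257 under the same alternatives, and -0.0155 to 0.29 with a library or litter left out. The cause of these changes was not tested. Among the named members, 890 alternative values kept direction and side of the threshold, 87 lost and 37 gained the call, and 8 changed sign. Depth limits Car9 and P4ha2, which were at 0 counts in some libraries.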
